A study of Mus musculus with 42 samples.

Results

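The genes described here are 33 mouse genes of fat cells and lipid storage, chosen by symbol and found in both count tables through their Ensembl identifiers. They were Adipoq, Lep, Retn and Cfd (secreted products of fat cells), Plin1, Plin4, Cidec and Cidea (coat of the lipid droplet), Pnpla2, Lipe, G0s2 and Adrb3 (breakdown of stored fat), Pparg, Cebpa, Mlxipl and Thrsp (control of transcription), Lpl, Cd36, Fabp4 and Aqp7 (uptake and transport), Pcx, Acly, Acaca, Acacb, Fasn, Elovl6 and Scd1 (making of fatty acids), Gpd1, Pck1, Agpat2 and Dgat2 (assembly of triglyceride), Ucp1 and Car3. They were 33 of 36604 genes listed for joint soft tissue and 33 of 54752 listed for lymph nodes. A filter on low counts was passed by 32 of the 33 among 16149 joint genes, and by 33 of the 33 among 18312 node genes. Ucp1 was the gene that did not pass in joint soft tissue.

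RNA was sequenced from wild-type C57BL/6 mice in a study of knee arthroplasty, surgery that replaces part of a joint with an implant. It followed repair of the joint and the response of the lymph nodes that drain it. The joint set held 24 libraries, 4 each of RST on days 3, 7, 14, 21 and 35 and of LST on day 35. RST and LST are the submitters' codes, kept here because no label explains them. LST was sampled on day 35 alone, so RST of an earlier day differs from LST in code and in day at once. The node set held 18 libraries, 3 each of Implant, ContraImplant and NoImplant nodes on day 7 and again on day 14. The ContraImplant nodes came from the other side of the mice that gave the Implant nodes (mice 7, 8 and 9 on day 7 and mice 25, 26 and 27 on day 14), and the NoImplant nodes from other mice. Labels of the counts mark Implant nodes as Surgery, and ContraImplant and NoImplant nodes as NoSurgery. Implant and NoImplant nodes thus differ in surgery and in implant at once. The labels name no transgene, deletion or drug for any group. Nothing says that joint replicates were separate animals, and p-values of the joint set may then reflect technical spread only. Total counts were 17842090 to 28024003 in joint libraries and 22041900 to 44371001 in node libraries. Levels are given as CPM, read counts scaled to library size with edgeR's TMM factors, and differences as log2 fold changes ± SE. A gene was called higher or lower at a Benjamini-Hochberg adjusted p below 0.05 in edgeR's quasi-likelihood test, adjusted over all genes tested in that tissue. In bulk tissue, fewer cells of a type and less RNA per cell cannot be told apart.

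A fat cell stores triglyceride in a droplet coated by perilipin 1 and CIDEC. Adrenergic signals, received in mouse fat by the beta 3 receptor Adrb3, release the store through the lipases ATGL (Pnpla2) and HSL (Lipe), while PPARγ and C/EBPα keep the fat cell programme on. Several of these genes also work outside fat: skeletal muscle burns fatty acids that lipoprotein lipase and CD36 help to bring in, and dividing cells make membrane fatty acids with Acly, Acaca and Fasn. Lymph nodes lie embedded in fat pads, so fat tissue can come along when a node is taken out.

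The 250 bases before the transcription start are shown for 4 genes whose RNA marks white fat cells. These genes were low together on the earliest day in the joint and, apart from Lep, moved closely with one another across nodes. Other white fat markers did so too, so the 4 are examples and that behaviour does not single them out. The bases were read from RefSeq, build GRCm38.p6, for Plin1 (chr7:79732777-79733026, minus strand), Cidec (chr6:113434765-113435014, minus strand), Lep (chr6:29059971-29060220, plus strand) and Adipoq (chr16:23146286-23146535, plus strand). In GENCODE M21 on mm10 the genes themselves span chr7:79720218-79732903 (Plin1, ENSMUSG00000030546), chr6:113424634-113435760 (Cidec, ENSMUSG00000030278), chr6:29060220-29073877 (Lep, ENSMUSG00000059201) and chr16:23146536-23158028 (Adipoq, ENSMUSG00000022878). Capitals mark the letters TTGCNNAA on either strand, a spelling that C/EBP proteins, to which C/EBPα belongs, can bind.
Plin1: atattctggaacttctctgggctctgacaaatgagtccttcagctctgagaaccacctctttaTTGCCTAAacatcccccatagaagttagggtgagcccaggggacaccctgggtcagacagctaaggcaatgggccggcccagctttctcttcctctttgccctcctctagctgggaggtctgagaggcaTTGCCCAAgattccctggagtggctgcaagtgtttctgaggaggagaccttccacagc
Cidec: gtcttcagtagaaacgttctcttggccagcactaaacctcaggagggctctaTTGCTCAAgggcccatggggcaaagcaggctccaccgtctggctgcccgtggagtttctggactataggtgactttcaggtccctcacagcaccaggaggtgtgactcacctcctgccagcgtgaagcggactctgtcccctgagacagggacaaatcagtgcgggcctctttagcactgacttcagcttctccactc
Lep: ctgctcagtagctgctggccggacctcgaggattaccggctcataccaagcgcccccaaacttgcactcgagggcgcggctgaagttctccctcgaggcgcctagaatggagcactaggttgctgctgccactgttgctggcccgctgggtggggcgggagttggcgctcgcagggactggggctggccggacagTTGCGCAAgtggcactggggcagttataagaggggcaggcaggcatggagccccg
Adipoq: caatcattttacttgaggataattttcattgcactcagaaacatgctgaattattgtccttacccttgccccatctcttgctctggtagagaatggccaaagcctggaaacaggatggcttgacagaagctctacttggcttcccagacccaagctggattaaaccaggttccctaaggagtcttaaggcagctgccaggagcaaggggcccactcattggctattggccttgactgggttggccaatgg
Plin1 held 2 matches, starting 187 and 58 bases before the start, Cidec 1 match at 198 bases and Lep 1 match at 55 bases, while Adipoq held 0. Cidec had 2 starts listed, and the window shown was picked because it held a match. Starts are those of RefSeq. By the GENCODE M21 spans above, the whole Cidec window and the Plin1 match at 58 bases lie inside the gene. Of the 33 genes, 25 were matched in the RefSeq table, with 32 starts in all, and 4 of these 32 starts (12.5%) held TTGCNNAA, in Cidec, Lep, Plin1 and Pparg. Among all 32851 starts listed there, 9.56% held it. Matches are thus more frequent in the 4 windows shown than in the 32 starts. The E-box letters CACGTG stood in 3 of the 32 starts (9.38%), in Lipe, Mlxipl and Pcx, against 6.02% of all starts. The letters AGGNCA repeated after a spacer of 1 base, a direct repeat of the kind that PPARγ binds with its partner RXR, stood in 0 of the 32, against 0.338% of all starts. Both strands were searched for all 3 spellings, and no gene held more than 1 of them.

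In joint soft tissue, most of the fat and lipid storage genes were lower in RST than in LST on days 3 and 7 and fewer on day 14, while Cebpa and Acly were higher through day 21. By day 35 none was called. On day 3, 22 of the 32 tested genes were lower and 4 higher than in LST, while 68.7% of all tested genes were called, 30.1% lower and 38.6% higher. On day 7, 20 were lower and 4 higher, while 76.1% of all tested genes were called, 35.1% lower and 41% higher. A call alone was thus common on both days, and the lower side held a greater share of these genes than of all genes. On day 14, 10 were lower and 2 higher (57.9% of all tested genes called, 24.5% lower and 33.4% higher), and on day 21, 1 was lower and 2 were higher (27.1% called, 5.42% lower and 21.7% higher). On day 35 edgeR called 0, with 1 at an unadjusted p below 0.05 and 0 by DESeq2, while 2.97% of all tested genes were called. The median log2 fold change of the 32 was -0.97, -1.16, -0.48, -0.20 and -0.053 on days 3, 7, 14, 21 and 35, and that of all tested genes 0.086, 0.079, 0.035, 0.019 and 0.016.

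**Figure D1:**
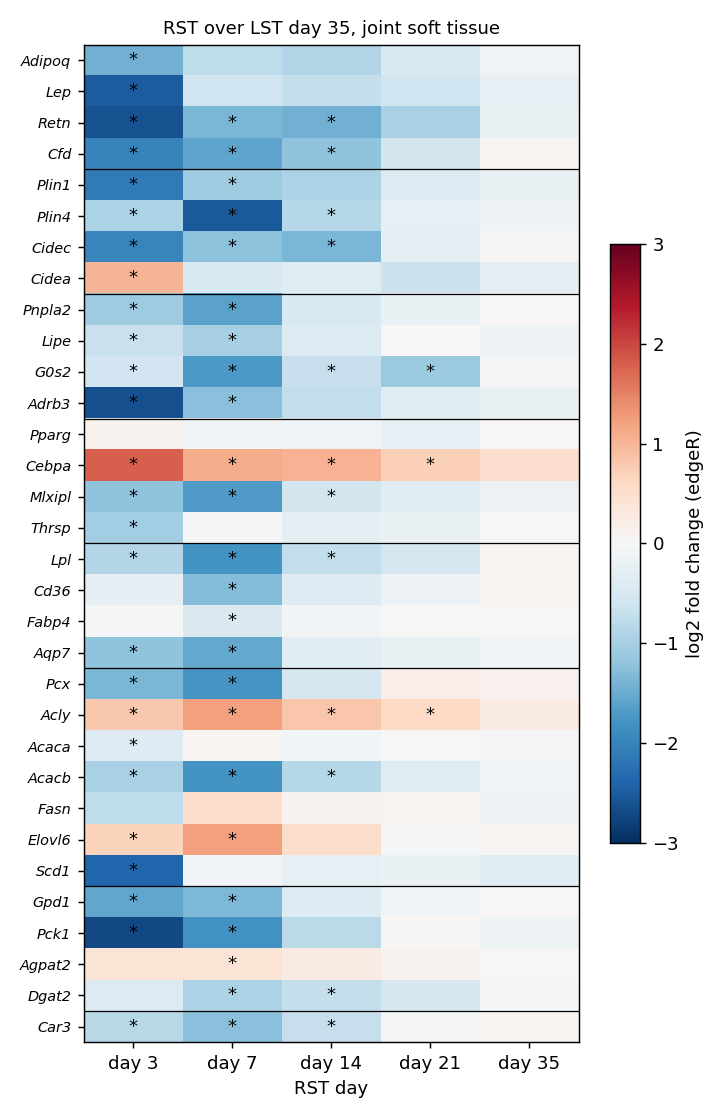
Log2 fold change of RST over LST day 35 for the 32 tested genes in joint soft tissue (rows, in blocks by role) on each RST day (columns). Blue is lower in RST and red higher, and an asterisk marks an adjusted p below 0.05 in edgeR. Asterisks mark 26 genes on day 3 and 0 on day 35, and Cebpa and Acly carry one through day 21.

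The split between lower and higher calls depended on how libraries were scaled, since TMM factors ran from 0.8077 in an LST library to 1.3679 in an RST day 7 library. With total-count scaling the median of all tested genes stood at 0.61, 0.71 and 0.33 on days 3, 7 and 14, and the calls were 14 lower and 7 higher on day 3, 12 lower and 7 higher on day 7 and 3 lower and 4 higher on day 14. No share of all tested genes called lower or higher with that scaling is given, here or below. Its counts can thus not be set against the shares above, which belong to TMM scaling. The mean log2 CPM over the 33 genes, taken per library, was 3.71 to 4.25 in RST day 3 libraries, 3.79 to 4.43 in those of day 7, 4.32 to 4.62 in those of day 14, 4.06 to 5.05 in those of day 21 and 4.51 to 5.09 in those of day 35. In LST libraries it was 4.82 to 4.96, above every RST library of days 3, 7 and 14 and within the range of days 21 and 35. The 33 genes together took 0.376 to 0.587% of all counts in RST day 3 libraries and 0.566 to 0.683% in LST libraries.

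Markers of other tissues moved over the same days. The summed level of 8 muscle fibre markers was 67880 to 92360 CPM in RST day 3 libraries, 53510 to 86850 CPM in those of day 7, 104300 to 146500 CPM in those of day 14 and 165700 to 172000 CPM in those of day 35, against 172300 to 187600 CPM in LST. The 6 macrophage markers summed to 1331 to 2141 CPM on RST day 3, against 70.7 to 98.2 CPM in LST, and the 5 fibroblast markers to 17570 to 23680 CPM on RST day 7, against 819 to 921 CPM in LST. The 7 white fat markers, which are members of the list (Adipoq, Lep, Plin1, Cidec, Retn, Cfd and Adrb3), summed to 14.6 to 84.1 CPM in RST day 3 libraries, 37.5 to 116 CPM in those of day 7, 64.5 to 81.97 CPM in those of day 14, 35.9 to 205 CPM in those of day 21 and 68.3 to 268 CPM in those of day 35, against 141 to 201 CPM in LST. White fat RNA was thus scarce beside muscle RNA in every group. Of these 4 marker lists no gene was at 0 over a whole group, and the part of muscle, macrophage or fibroblast RNA in the values below was not tested. Against LST, 7 of the 7 white fat markers were lower on day 3, 5 on day 7, 3 on day 14 and 0 on day 21, where 1 had an unadjusted p below 0.05. Of all tested genes, 30.1%, 35.1%, 24.5% and 5.42% were lower on the same days.

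**Figure D2:**
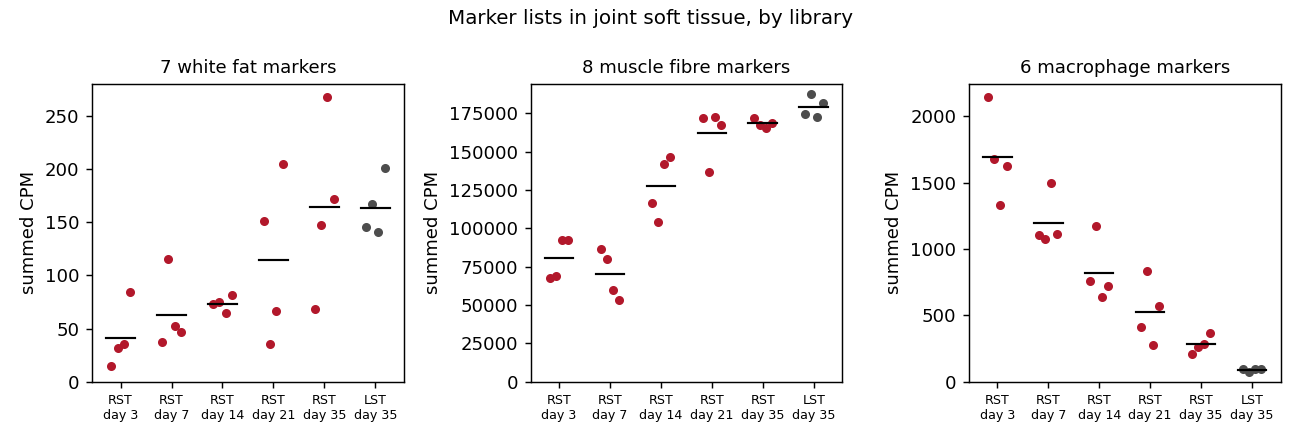
Summed CPM of the 7 white fat, 8 muscle fibre and 6 macrophage markers in each joint library (points; bars are group means, n = 4), for RST by day and for LST day 35. The lowest white fat sum, 14.6 CPM, is on RST day 3, the lowest muscle fibre sum, 53510 CPM, on day 7, and macrophage markers are highest on day 3.

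All 4 secreted products of fat cells were lower on day 3. Resistin (Retn), a hormone that fat cells make in mice, had 0.557, 0.831, 0.641 and 2.53 CPM on RST day 3, against 7.58, 8.89, 4.81 and 7.01 CPM in LST. The groups did not overlap, and the log2 fold change was -2.61 ± 0.43 (adjusted p = 1.34e-05). It was also lower on day 7, at -1.37 ± 0.39, and on day 14, at -1.44 ± 0.40. Adiponectin (Adipoq), a hormone of insulin sensitivity, had 2.88, 5.16, 6.45 and 10.4 CPM on RST day 3, against 15.8, 15.7, 15.4 and 20.9 CPM in LST, with no overlap and a difference of -1.44 ± 0.43 (adjusted p = 0.00522). This call was lost with total-count scaling, and on later days Adipoq was not called, at -0.75 ± 0.42 on day 7. Leptin (Lep), the hormone that reports fat mass to the brain, had 0, 0.208, 0.513 and 0.830 CPM on RST day 3, against 2.21, 2.28, 2.30 and 2.20 CPM in LST. Its difference was -2.49 ± 0.59 on day 3 (adjusted p = 0.00073), and day 7 was not called at -0.59 ± 0.50. Adipsin (Cfd), a complement factor made by fat cells, was lower on days 3, 7 and 14, at -1.996 ± 0.52, -1.58 ± 0.51 and -1.21 ± 0.51, and the day 14 call was lost in 10 of 14 alternative settings.

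Coat proteins of the droplet took different courses. Perilipin 1 (Plin1), which guards the fat cell droplet against lipases, had 1.30, 2.32, 2.01 and 6.94 CPM on RST day 3, against 15.9, 15.1, 10.6 and 14.02 CPM in LST. The groups did not overlap, and the difference was -2.13 ± 0.51 (adjusted p = 0.000771). On day 7 it had 3.97, 12.5, 5.96 and 3.93 CPM, with replicate 2 inside the LST range, and the difference was -1.07 ± 0.47. Cidec, which lets droplets fuse, was lower on day 3, at -1.97 ± 0.56, on day 7 at -1.24 ± 0.53 and on day 14 at -1.37 ± 0.54. The day 7 calls were lost in 9 of 14 settings for Plin1 and in 6 of 14 for Cidec, and the day 14 call of Cidec in 7 of 14. Perilipin 4 (Plin4), a coat protein of fat and also of muscle, had 106, 134, 220.4 and 161 CPM on RST day 3, 65.8, 73.1, 41.2 and 31.9 CPM on day 7 and 242, 240, 349 and 378 CPM in LST. The RST libraries of both days lay below every LST library, those of day 7 lowest, with -0.96 ± 0.27 on day 3 and -2.51 ± 0.29 on day 7 (adjusted p = 5.68e-08). Cidea, a relative of Cidec found in brown fat, had 1.72, 1.004, 1.03 and 0.603 CPM on RST day 3, against 0.659, 0.365, 0.724 and 0.358 CPM in LST. Its call at 1.01 ± 0.45 (adjusted p = 0.0497) was lost in 9 of 14 settings.

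All 4 genes of fat breakdown were lower on days 3 and 7. ATGL (Pnpla2), which takes the first fatty acid off triglyceride, had 83.4, 90.04, 71.3 and 88.3 CPM on RST day 7, against 228, 192, 319 and 280.3 CPM in LST. The groups did not overlap, and the difference was -1.61 ± 0.21 (adjusted p = 4.42e-07), after -1.07 ± 0.21 on day 3. Its inhibitor G0s2 had 14.8, 12.4, 11.9 and 7.67 CPM on day 7, against 38.5, 40.5, 44.4 and 31.1 CPM in LST, a difference of -1.72 ± 0.25. On day 3 its difference from LST was -0.58 ± 0.24, a call lost in 6 of 14 settings, namely total-count scaling and without any one of RST day 3 replicates 2 and 3 and LST replicates 1, 2 and 3. G0s2 was the one gene of the 32 lower than LST on day 21 (-1.10 ± 0.25, adjusted p = 0.00165) and the one that differed between RST days 35 and 21, by 1.05 ± 0.25 with 3.97% of all tested genes called. That step was lost in 6 of 14 settings, namely with only those groups in the fit and without each of RST day 21 replicates 2 and 4 and RST day 35 replicates 1, 2 and 3. The hormone-sensitive lipase gene Lipe was lower, at -0.67 ± 0.20 on day 3 and -0.995 ± 0.20 on day 7, and with total-count scaling both calls were lost (-0.15 and -0.37). The receptor gene Adrb3 was lower, at -2.63 ± 0.62 on day 3 and -1.26 ± 0.54 on day 7, and the day 7 call was lost in 7 of 14 settings.

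The transcription factors differed in direction. Pparg, the master regulator of fat cells, was not called against LST on any of the 5 days. It had 5.71, 2.15, 2.82 and 4.90 CPM on RST day 3, against 3.20, 3.69, 3.62 and 3.94 CPM in LST, where the LST libraries lay inside the RST range and the difference was 0.10 ± 0.25 (adjusted p = 0.731). Cebpa, its partner in fat cells and a factor of myeloid cells too, had 66.4, 37.03, 33.6 and 49.6 CPM on RST day 3, against 15.2, 12.1, 11.97 and 14.2 CPM in LST. RST libraries lay above every LST library on days 3, 7, 14 and 21, and the differences were 1.80 ± 0.22, 1.12 ± 0.22, 1.04 ± 0.22 and 0.72 ± 0.22. The day 21 call was lost in 4 of 14 settings, each leaving out 1 library (RST day 21 replicate 2 or 4, LST replicate 2 or 3). The macrophage markers were also highest on RST day 3 and lowest in LST, and their part in Cebpa was not tested. Mlxipl (ChREBP), which turns on lipogenic genes when sugar is plentiful, stood at 31.97 to 47.9 CPM on RST day 7, against 116 to 147 CPM in LST (-1.70 ± 0.18). Thrsp (Spot 14), a nuclear protein tied to lipogenesis, was lower on day 3, at -1.05 ± 0.26, and was not called on day 7, at -0.028 ± 0.25.

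All 4 uptake genes were lower on day 7. Lipoprotein lipase (Lpl), which frees fatty acids from blood lipoproteins, had 545, 330.1, 438 and 329 CPM on RST day 3, 272, 253, 202 and 151 CPM on day 7 and 694, 516, 994 and 813 CPM in LST. It was lower than in LST, at -0.88 ± 0.26 on day 3, -1.78 ± 0.27 on day 7 and -0.74 ± 0.26 on day 14. The fatty acid receptor gene Cd36 was not called on day 3 (-0.28 ± 0.24), with 189 to 308 CPM in RST and 232 to 385 CPM in LST, and was lower on day 7, at 90.5 to 154 CPM (-1.30 ± 0.24). The glycerol channel gene Aqp7 was lower on both days, at -1.21 ± 0.22 and -1.54 ± 0.23. Fabp4, a fatty acid carrier of fat cells, macrophages and capillaries, had 181, 111, 145 and 147 CPM on RST day 3, against 157, 147, 149.8 and 142 CPM in LST, and was not called (-0.028 ± 0.15). Its day 7 call of -0.43 ± 0.15 turned to 0.20 with total-count scaling.

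Genes that make fatty acids split between higher and lower. Acly, which supplies acetyl-CoA in the cytosol, had 52.3, 65.9, 68.8 and 54.7 CPM on RST day 7, against 31.8, 25.8, 22.8 and 23.1 CPM in LST, with no overlap. It was higher on days 3, 7, 14 and 21, by 0.81 ± 0.16, 1.22 ± 0.17, 0.84 ± 0.16 and 0.61 ± 0.17, and the day 21 call was lost without RST day 21 replicate 2. The elongase gene Elovl6 was higher by 0.67 ± 0.26 on day 3 and 1.23 ± 0.25 on day 7, where it stood at 7.22 to 8.87 CPM in RST and 2.56 to 4.76 CPM in LST. The desaturase gene Scd1 had 15.04, 23.8, 19.8 and 26.02 CPM on RST day 3, 53, 177, 103 and 84.2 CPM on day 7 and 191, 120.2, 52.1 and 78.3 CPM in LST. Its day 3 libraries lay below all others, at -2.38 ± 0.37 against LST (adjusted p = 7.21e-06), and day 7 was above day 3 by 2.30 ± 0.37. Fatty acid synthase (Fasn) stood at 24.1 to 31.4 CPM on RST day 3, 50.2 to 85.8 CPM on day 7 and 22.8 to 64.7 CPM in LST. It was not called against LST, at -0.76 ± 0.35 on day 3 and 0.52 ± 0.35 on day 7, and was higher on day 7 than on day 3 by 1.27 ± 0.35. Acacb, the acetyl-CoA carboxylase at muscle mitochondria, had 158, 154, 115 and 143 CPM on RST day 7, against 453, 428, 549 and 541 CPM in LST, a difference of -1.79 ± 0.18 (adjusted p = 8.05e-09). The pyruvate carboxylase gene Pcx was lower, at -1.77 ± 0.29 on that day. Acaca, the cytosolic carboxylase, was lower on day 3, at -0.38 ± 0.14, a call lost without RST day 3 replicate 1 and turned to 0.14 by total-count scaling.

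**Figure D3:**
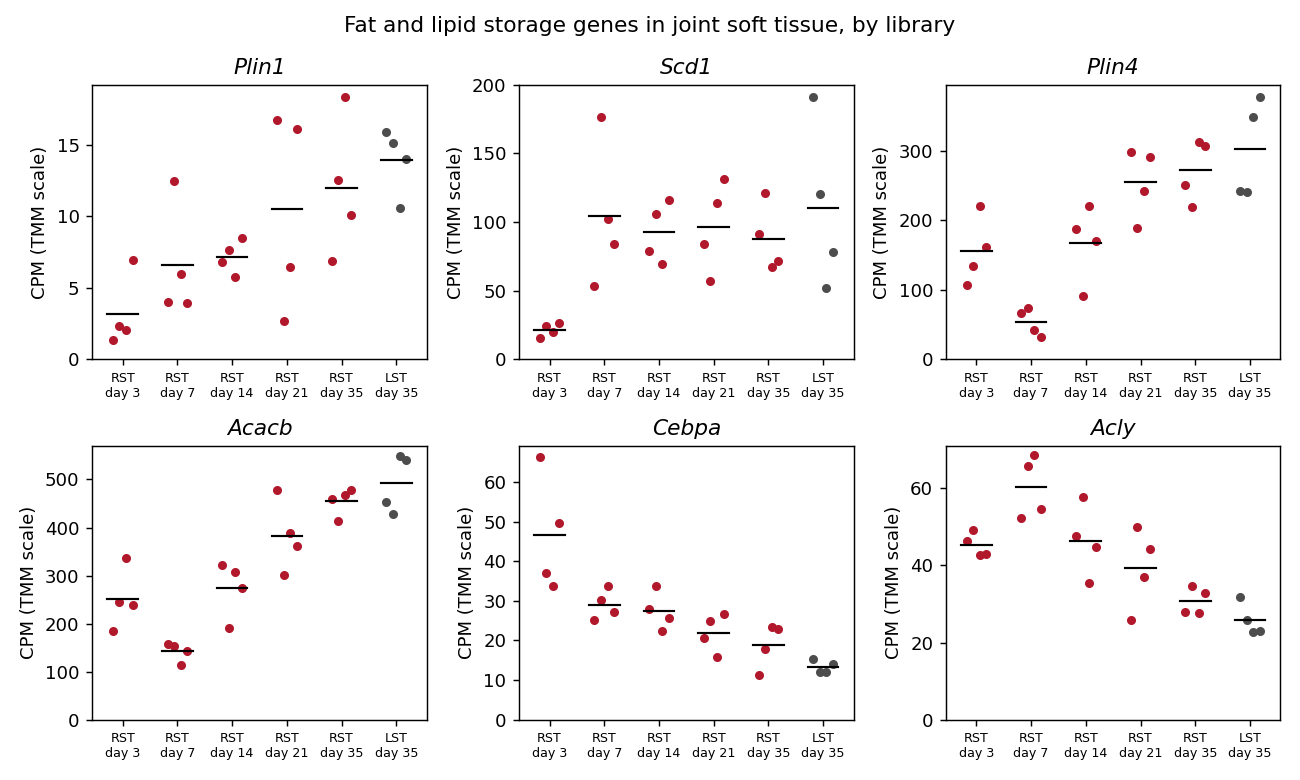
CPM of 6 genes in each joint library (points; bars are group means, n = 4), for RST by day and for LST day 35. Plin1 and Scd1 have their lowest means on RST day 3, Plin4 and Acacb on day 7, and Cebpa and Acly lie above LST on days 3, 7 and 14.

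Of the 4 genes that assemble triglyceride, Gpd1 and Pck1 were lower on days 3 and 7. Gpd1, which makes the glycerol backbone, had 184, 178, 293 and 283 CPM on RST day 3, against 722, 774, 606 and 656 CPM in LST, with no overlap (-1.56 ± 0.22). Pck1, which in fat cells feeds the same backbone, had 0.557, 0.761, 1.28 and 2.49 CPM on RST day 3, against 6.92, 7.48, 5.84 and 13.8 CPM in LST. Its difference of -2.72 ± 0.60 was the lowest of the 32 on that day. Dgat2, which adds the last fatty acid, was lower on day 7, at -0.95 ± 0.25 and on day 14 at -0.70 ± 0.25. Agpat2, an acyltransferase of the same route, stood at 8.22 to 10.3 CPM on RST day 7 and 6.20 to 8.43 CPM in LST, and its call of 0.41 ± 0.19 was lost in 10 of 14 settings. Car3, a carbonic anhydrase of fat and slow muscle, had the highest level of the 33 per length in LST, with a group mean of 1218 CPM per kb of exon. It was lower on days 3, 7 and 14, at -0.84 ± 0.25, -1.25 ± 0.25 and -0.69 ± 0.24. Ucp1, the heat-making protein of brown fat, had 1 count in each of 3 joint libraries and 0 in the others.

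By mean log2 CPM, 13 of the 32 genes stood lowest on RST day 3, 13 on day 7, 3 on day 21 and 3 on day 35. Those of day 3 were the 7 white fat markers with Thrsp, Acaca, Fasn, Scd1, Gpd1 and Pck1. Those of day 7 were Plin4, Pnpla2, Lipe, G0s2, Mlxipl, Lpl, Cd36, Fabp4, Aqp7, Pcx, Acacb, Dgat2 and Car3. Tested directly, day 7 differed from day 3 for 17 genes, while 41.2% of all tested genes were called, 18.7% higher and 22.5% lower. Higher on day 7 were Lep, Retn, Thrsp, Acly, Acaca, Fasn and Scd1, and lower were Plin4, Cidea, Pnpla2, G0s2, Cebpa, Mlxipl, Lpl, Cd36, Fabp4 and Acacb. Of these calls Pnpla2 was lost in 8 of 14 settings, Fabp4 in 7 of 14, Retn, Acly and Mlxipl in 5 of 14 each, Cebpa in 2 of 14 and Lep, Acaca and Cidea in 1 of 14 each, while Thrsp, Fasn, Scd1, Plin4, G0s2, Lpl, Cd36 and Acacb were lost in 0 of 14. Without RST day 3 replicate 1 the calls of Retn, Acly, Acaca, Cidea, Pnpla2, Cebpa and Fabp4 were lost, and the count was 10, and with total-count scaling 7 were higher and 6 lower. Between days 14 and 7, Plin4, Pnpla2, Lipe, G0s2, Mlxipl, Lpl, Cd36, Aqp7, Pcx, Acacb and Gpd1 were higher on day 14 and Elovl6 was lower, while 38.9% of all tested genes were called, 20.9% higher and 18% lower. The calls of Lipe and Elovl6 were lost in 5 of 14 settings each. Plin4 was higher by 1.66 ± 0.28, and with total-count scaling the calls were 10 higher and 5 lower.

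The last steps were small, and single libraries weighed on them. Between days 21 and 14 edgeR called 0 of the 32, with 6 at an unadjusted p below 0.05 and 1 by DESeq2, while 0.737% of all tested genes were called. Without RST day 21 replicate 2 the count was 7. That library had the lowest white fat sum of its group, 35.9 CPM, where replicate 4 had 205 CPM. Over all tested genes, leaving out 1 library in turn gave 2 to 4466 calls between days 21 and 14. The 7 can thus not be set against the 0.737% of the full fit. Against LST, leaving out 1 library moved the count of day 14 to 6 without RST day 14 replicate 2, and that of day 21 to 1 without RST day 21 replicate 2. Over all tested genes, leaving out 1 library gave 7663 to 9555 calls against LST on day 14 and 2502 to 4937 on day 21.

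Of 55 other genes of the same pathways, 54 were tested in joint tissue, and the balance of their calls depended on the scaling. Against LST, 25 were lower and 14 higher on day 3, 31 were lower and 17 higher on day 7, 17 were lower and 15 higher on day 14 and 4 were lower and 7 higher on day 21. As a share of the 54, the calls made up 72.2%, 88.9%, 59.3% and 20.4% on days 3, 7, 14 and 21, where 68.7%, 76.1%, 57.9% and 27.1% of all tested genes were called. The shares of days 3 and 14 were thus near those of all genes, and that of day 21 was below. With total-count scaling, chosen for these counts after the data were seen, 12 were lower and 23 higher on day 3, 24 were lower and 24 higher on day 7 and 7 were lower and 19 higher on day 14. On day 35 edgeR called 0, with 2 at an unadjusted p below 0.05. Of the 10 genes of fatty acid oxidation, 8 were lower on day 3 and 10 on day 7, where 30.1% and 35.1% of all tested genes were lower. With total-count scaling 4 of the 10 were lower and 1 higher on day 3 and 10 lower on day 7, with no share of all tested genes beside them. Among the 10 oxidation genes, Acadm, an enzyme that shortens medium-length fatty acids, averaged 112 ± 36.4 CPM on RST day 7 and 372 ± 24.3 CPM in LST (SD, n = 4 each), a difference of -1.73 ± 0.21. Slc2a4, the insulin-responsive glucose transporter of muscle and fat, averaged 185 ± 52.7 CPM on RST day 7 and 693 ± 17.9 CPM in LST, a difference of -1.91 ± 0.19.

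Several other lipid genes, none of them particular to fat cells, were higher, while others were lower. Plin2, the droplet coat of many cell types, averaged 152 ± 50.5 CPM on RST day 3 and 33.7 ± 1.53 CPM in LST, higher by 2.17 ± 0.19. Hilpda, an inhibitor of ATGL induced by low oxygen, averaged 9.22 ± 2.02 CPM on RST day 3 and 3.01 ± 0.375 CPM in LST, higher by 1.61 ± 0.21. Fitm2 averaged 57.2 ± 3.19 CPM on RST day 3 and 158.7 ± 10.8 CPM in LST. Fitm1 averaged 80.9 ± 9.69 and 174 ± 7.30 CPM in the same groups, and both were lower in 14 of 14 alternative settings. The fatty acid carrier Fabp5 averaged 63.7 ± 32.3 CPM on RST day 3 and 3.79 ± 0.241 CPM in LST, higher by 4.07 ± 0.35. Angptl4, a secreted inhibitor of lipoprotein lipase, averaged 61.3 ± 11.9 CPM on RST day 3 and 4.26 ± 2.19 CPM in LST, higher by 3.86 ± 0.50. The lipins, which make diacylglycerol, differed in direction on day 7. Lpin2 averaged 17.7 ± 3.73 CPM in RST and 2.88 ± 0.536 CPM in LST, higher by 2.62 ± 0.21. Lpin1 averaged 87.5 ± 16.3 CPM in RST and 465 ± 67.2 CPM in LST, a difference of -2.41 ± 0.19. Dlk1, a surface protein of preadipocytes and of regenerating muscle, averaged 17.8 ± 4.94 CPM on RST day 7 and 0.979 ± 0.476 CPM in LST, higher by 4.17 ± 0.37.

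In lymph nodes, the same 33 genes varied widely between single libraries, and edgeR called none of them in any of 6 group comparisons and 2 interactions. They took 0.178% to 3.61% of a library's counts. The ContraImplant day 7 node of mouse 8 had the highest level of 30 of the 33 genes, and the ContraImplant day 7 node of mouse 7 the lowest level of 20. The lowest level of the other 13 was in the Implant day 14 node of mouse 26, and the highest of the other 3 in NoImplant day 14 replicate 3. Adipoq had 2.74, 446 and 27.6 CPM in the ContraImplant day 7 nodes of mice 7, 8 and 9. From the lowest to the highest library the 33 genes spanned a median of 64.5-fold, and 14 spanned over 100-fold. Pnpla2, G0s2, Cebpa and Acly spanned under 10-fold. Acly ran from 259.8 to 1276 CPM over the 18 libraries and Cebpa from 78.5 to 405 CPM, while Cfd ran from 16.8 to 3346 CPM.

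**Figure D4:**
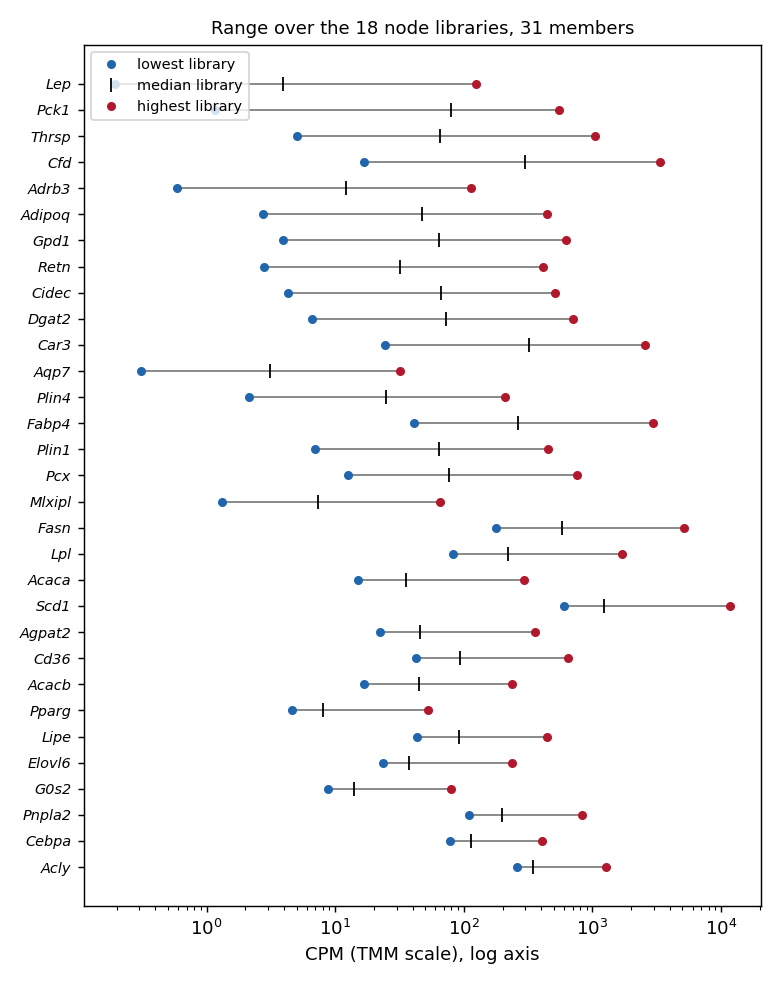
Lowest, median and highest CPM (log axis) over the 18 node libraries for 31 of the 33 genes. Ucp1 and Cidea, whose lowest library held 2 counts, are left out. Lep spans 646-fold and Pck1 468-fold, against 4.91-fold for Acly and 5.15-fold for Cebpa.

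The genes followed Adipoq over the 18 node libraries to differing degrees. As a description over libraries that share mice and differ in depth, the Pearson correlation of log2 CPM with Adipoq was 0.996 for Cidec, 0.994 for Car3, 0.993 for Adrb3, 0.992 for Plin1 and 0.991 for Plin4. It was 0.742 for Lep, 0.661 for Ucp1, 0.614 for Scd1, 0.579 for Elovl6 and 0.531 for Acly. Of the 50 tested genes most like Adipoq by this measure, 11 were among the 33. The 10 most alike outside the 33 were Cyp2e1 (0.992), Ces1d, Ces1f, Cdo1, Adig, Ankef1, Acss3, Klhdc7a, Lgals12 and Echdc2 (0.966), all of them highest in the ContraImplant day 7 node of mouse 8. B and T cell markers summed to 1686 to 2625 CPM in nodes, against 1.25 to 10.6 CPM in joint tissue. The 8 muscle fibre markers summed to 24.9 to 31.6 CPM in 13 of the 18 nodes, to 746 CPM in ContraImplant day 7 replicate 3 and to 1215 CPM in NoImplant day 7 replicate 2. Carry-over of fat or muscle on a node cannot be told apart here from change within the node, and its part in the differences between node groups was not tested.

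On day 14 all 33 genes had a negative fitted difference between Implant and NoImplant nodes, though none was called. Adipoq had 32.2, 6.14 and 9.05 CPM in Implant nodes, against 42.1, 315 and 224 CPM in NoImplant nodes. The groups did not overlap, and the log2 fold change was -3.61 ± 1.26 (edgeR, adjusted p = 0.0882). Plin1 had 35.4, 11.1 and 14.2 CPM in Implant nodes, against 40.95, 287 and 264 CPM in NoImplant nodes (-3.28 ± 1.13, edgeR, adjusted p = 0.0839). Fasn, of the genes that make fatty acids, had 374, 177 and 221 CPM in Implant nodes, against 382, 1151 and 963 CPM in NoImplant nodes (-1.69 ± 0.81). Markers of other cells differed between these nodes too. The 5 endothelial markers summed to 753 to 785 CPM in Implant nodes, 858 to 1010 CPM in ContraImplant nodes and 921 to 1115 CPM in NoImplant nodes, and the 6 B and T cell markers to 2390 to 2625 CPM, 2138 to 2519 CPM and 1686 to 2272 CPM in the same groups. Implant and NoImplant nodes did not overlap in either sum. The 6 macrophage markers summed to 1874 to 2306 CPM in Implant nodes and 1677 to 2628 CPM in NoImplant nodes, which overlap. Among them Adgre1, singled out after its values were seen, had 14.9, 22.9 and 21.5 CPM in Implant nodes, against 25.8, 43.8 and 38.8 CPM in NoImplant nodes. The rest of that list, Cd68, Csf1r, Lyz2, Trem2 and Mrc1, each overlapped between the same groups. No gene of these 3 lists was at 0 over a group, and the part of these cells in the differences was not tested. The smallest adjusted p of the 33 was 0.0766. The median over the 33 was -2.996, and over all tested genes -0.002. CPM ranges did not overlap for 25 of the 33, lower in Implant nodes for each, where 16.1% of all tested genes were lower without overlap. EdgeR called 5.97% of all tested genes and 0 of the 33, of which 28 had an unadjusted p below 0.05, while DESeq2 called 17, all lower. Without any one of these 6 libraries none was called, and those at an unadjusted p below 0.05 numbered 12 to 30, lowest without either of Implant replicates 2 and 3. With only the 6 libraries compared in the fit the count was 2. Without the ContraImplant day 7 nodes of mice 7 and 8, which are not among the libraries compared, it was 29, all lower. Those nodes were picked after the data were seen, because they held the highest or lowest level of most of the 33 genes. Leaving them out lowers the estimated spread of these same genes by that choice, so the 29 lends no support. The 5.97% belongs to the main fit, and no share of all tested genes is given beside the 17, 2 and 29. Leaving out 1 of the 6 libraries in turn, calls over all tested genes ran from 0 to 1557.

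The pairs of day 14 pointed the same way. Adipoq had 32.2, 6.14 and 9.05 CPM in the Implant nodes of mice 25, 26 and 27, against 129, 91.1 and 86.7 CPM in their ContraImplant nodes. The difference was -2.68 ± 1.22 in the main fit by group, which does not pair the nodes of a mouse. In each of the 3 mice the Implant node was below the ContraImplant node for 33 of 33 genes, by a median of 1.76, 3.04 and 1.88 on the log2 scale. The genes followed one another across nodes to differing degrees, so they are not 33 separate observations of a mouse. The share of all tested genes lower in each pair was not counted. Ranges did not overlap for 28 of the 33, where 10% of all tested genes were lower without overlap, and overlapped for Lep, Acly, Elovl6, Scd1 and Ucp1. In the same unpaired fit edgeR called 0 of the 33 and 0% of all tested genes, with 9 of the 33 at an unadjusted p below 0.05 and 0 by DESeq2. The fit with the mouse as a block is given at the end of the text. With only the groups compared in the fit the count was 13, and the share of all tested genes in that fit is not given here. ContraImplant against NoImplant nodes of day 14 gave 0 called in edgeR, 0 at an unadjusted p below 0.05 and 0 in DESeq2, with a median of -0.62, 0% of all tested genes called and ranges free of overlap for 0 of the 33, where 10.1% of all tested genes were free of it.

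On day 7 the pairs did not point one way. In mouse 8 the Implant node was below the ContraImplant node for 33 of 33 genes, by a median of 3.20 on the log2 scale. In mouse 7 it was above for 33 of 33, by 1.34, and in mouse 9 for 32 of 33, by 0.70. Here too the genes are not separate observations, and the share of all tested genes in each direction was not counted. In the fit by group, which does not pair the nodes of a mouse, edgeR called 0 of the 33 and 0.715% of all tested genes. Of the 33, 4 had an unadjusted p below 0.05, and DESeq2 called 0. Without the ContraImplant node of mouse 7 the count was 2, with 30 at an unadjusted p below 0.05, and without that of mouse 9 it was 0, with 24. Leaving out 1 library in turn, calls over all tested genes ran from 0 to 2030 in this comparison.

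Between Implant and NoImplant nodes of day 7, Adipoq had 16.7, 35.8 and 43.7 CPM in Implant nodes, against 50.7, 214 and 75.5 CPM in NoImplant nodes. The groups did not overlap, and the difference was -1.82 ± 1.18 (edgeR, adjusted p = 0.423). EdgeR called 0 of the 33, with 0 at an unadjusted p below 0.05 and 0 by DESeq2, while 0.0437% of all tested genes were called. Ranges did not overlap for 11 of the 33, where 31.9% of all tested genes were free of overlap. ContraImplant against NoImplant nodes of day 7 gave 0 called in edgeR, 1 at an unadjusted p below 0.05 and 0 in DESeq2, with 0% of all tested genes called. The change of the Implant difference between days 14 and 7 was tested as an interaction. It was called for 0 of the 33 genes against NoImplant and 0 against ContraImplant by edgeR and by DESeq2, with 0 at an unadjusted p below 0.05 in edgeR, and for 0% of all tested genes. Without the ContraImplant day 7 node of mouse 8, 27 had an unadjusted p below 0.05 in the interaction against ContraImplant and 27 between ContraImplant and NoImplant nodes of day 7, with 0 and 0 called.

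**Figure D5:**
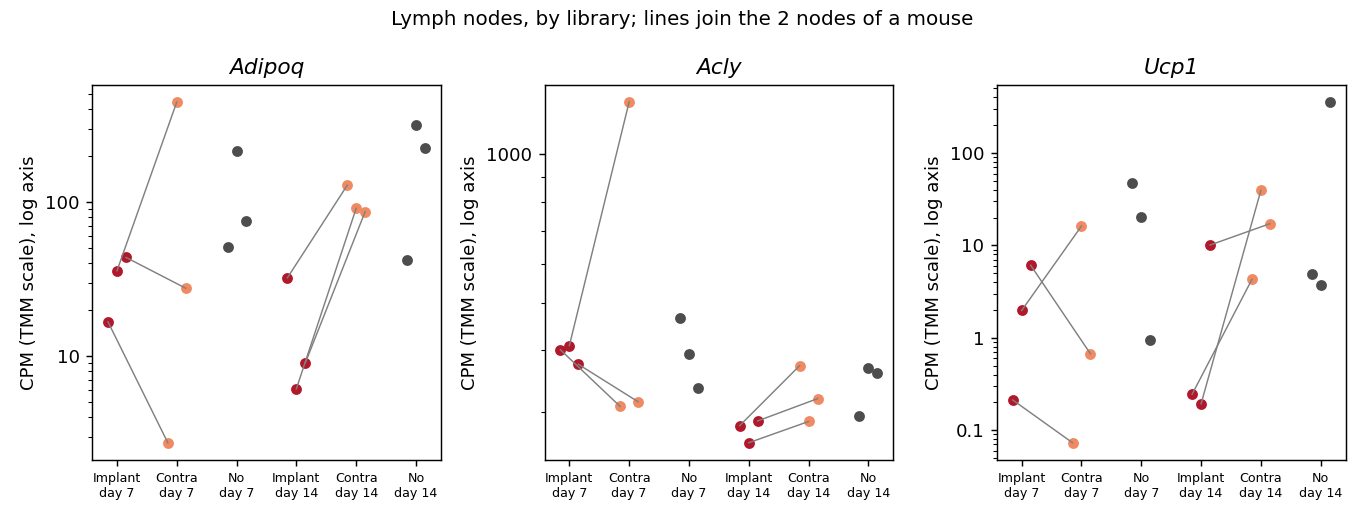
CPM (log axis) of Adipoq, Acly and Ucp1 in each node library (points), by group and day, with lines joining the 2 nodes of a mouse. On day 14 the Implant node has less Adipoq than the ContraImplant node in 3 of 3 mice and on day 7 in 1 of 3, and Ucp1 is highest in 1 NoImplant node of day 14.

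Brown fat genes singled out another node. Ucp1 had 0.245, 0.193 and 10.1 CPM in Implant nodes of day 14, 4.28, 39.4 and 17.2 CPM in ContraImplant nodes and 4.95, 3.74 and 357 CPM in NoImplant nodes. NoImplant day 14 replicate 3 was the highest of all 18 libraries for Ucp1, for Cidea, at 125 CPM, and for Pck1, at 547 CPM. It also had 78.3 CPM of Cox8b, 14.8 CPM of Elovl3 and 34.1 CPM of Dio2, other brown fat genes. The 5 brown fat markers summed to 609.5 CPM there and to at most 131 CPM in the other 17 libraries, while its Adipoq was below that of replicate 2 of the same group. In joint tissue the same sum was 91.1 to 449.6 CPM with Ucp1 at or near 0, most of it from Cox8b, which muscle also makes.

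Of 54 other lipid genes tested in nodes, edgeR called 2 between Implant and NoImplant nodes on day 14, both lower in Implant nodes, where 5.97% of all tested genes were called, so the share of these genes was not above that of all genes. Angptl4 averaged 34.2 ± 3.88 CPM in Implant nodes and 89.6 ± 21.3 CPM in NoImplant nodes (SD, n = 3 each), a difference of -1.39 ± 0.39 (edgeR, adjusted p = 0.0484). Cebpb, a factor of early fat cell formation and of many immune cells, averaged 25.03 ± 5.33 CPM in Implant nodes and 55.1 ± 28.3 CPM in NoImplant nodes, a difference of -1.14 ± 0.28 (edgeR, adjusted p = 0.0323). The calls were lost in 5 of 13 settings for Angptl4 and 6 of 13 for Cebpb, both without any one of Implant replicates 1, 2 and 3 and NoImplant replicates 2 and 3.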

How the data were processed

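RNA-seq gene counts were analysed for 24 joint and 18 lymph node libraries. The deposited counts are raw whole-number reads per Ensembl gene, and the authors used fastp and STAR with the mm10 genome, per the submitters' processing notes. The counting tool, annotation, strand setting and tool versions were not stated in the labels read here, so overlapping or antisense genes may share reads. GENCODE M21 gave names to 36591 of 36604 joint and 54723 of 54752 node identifiers. Libraries were made from total RNA with an NEBNext Ultra II RNA kit, per the labels' protocols.

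Each tissue was fitted on its own with all its groups in edgeR 4.0.16 (R 4.3.3): filterByExpr with a minimum count of 10, TMM factors, the quasi-likelihood F test and Benjamini-Hochberg adjustment over all genes tested. The SE is the absolute log2 fold change divided by the square root of F. The log2 CPM values use a prior count of 2. Alternatives were DESeq2 1.42.0, its size factors or total counts for scaling, no filter, only the groups compared, a replicate block and leaving out each library. Scripts were tested on simulated data. Implant and ContraImplant nodes of 1 mouse are paired by the mouse number in the labels, and same-mouse deviations correlated at 0.106 to 0.402.

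The 33 genes, the pathway and marker lists and the alternatives were chosen with earlier results of these data known. The text names the 33 genes, for other pathway lists up to 4 called genes with the smallest adjusted p in a comparison, and the 10 genes most like Adipoq in nodes. No 2 replicates were alike within counting noise (lowest chi-square per degree of freedom 8.269 over genes with a summed count of at least 20). Motif letters were sought in RefSeq windows of 250 bases before the start.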

Additional observations from a re-analysis of the deposited data

Results flagged for a closer look

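In joint groups of 4 libraries, a library was set apart where its gap to the nearest of the others, divided by the range of the group, was over Dixon's critical value for 4 samples. Of 192 sets of 1 gene in 1 group and 12 sets of a list mean in 1 group, 4 were set apart, and chance alone sets apart about 1 in 20. Adipoq was high in LST day 35 replicate 4, at 4.39 log2 CPM (ratio 0.916). RST day 7 replicate 2 was high for Adrb3, at 1.25 log2 CPM (ratio 0.868), and for Lipe, at 3.78 log2 CPM (ratio 0.83). Fasn was low in RST day 14 replicate 3, at 5.02 log2 CPM (ratio 0.857). Node groups of 3 were not examined this way.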

How the results depend on the processing

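Settings that move a count of calls by over 1.5 times, turn a direction or move the list level beyond the spread between replicates are given here. Calls against LST on day 14 numbered 7 with total-count scaling and 19 with only the groups compared in the fit, beside 12. The step between days 21 and 14 had 1 call by DESeq2, beside 0, and that between days 35 and 21 had 0 with only its groups in the fit, beside 1. Between Implant and NoImplant nodes of day 14 there were 17 calls by DESeq2 and 2 with only those groups, beside 0. There were 29 without the ContraImplant day 7 nodes of mice 7 and 8, picked after seeing the data by the levels of these same genes. Between Implant and ContraImplant nodes of day 14 there were 13 with only those groups, beside 0. No share of all tested genes is given beside these node counts.

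With total-count scaling the difference in mean log2 CPM over the 33 genes was -0.44, -0.24 and -0.15 for RST days 3, 7 and 14 against LST, beside -0.94, -0.84 and -0.42, and 0.089 for day 14 against day 7, beside 0.41. Over the 7 white fat markers alone it was -2.34, -1.26, -1.03, -0.78 and -0.27 for days 3, 7, 14, 21 and 35 against LST, 1.08 for day 7 against day 3 (beside 0.11) and -2.88 for Implant against ContraImplant nodes of day 14 (beside -2.11). Total-count scaling turned the direction of Acaca (0.141), Agpat1 (0.031) and Zfp423 (0.04) on day 3 and of Fabp4 (0.199) on day 7. The cause was not tested.

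Leaving out 1 library in turn gave counts against LST of 23 to 26 for day 3, 20 to 24 for day 7, 6 to 14 for RST day 14 (lowest without its replicate 2), 1 to 4 for RST day 21 (lowest without its replicate 2) and 0 for day 35. It gave 10 to 16 for day 7 against day 3, 10 to 15 for day 14 against day 7, 0 to 7 for day 21 against day 14 and 0 to 2 for day 35 against day 21. The 7 and the lowest count of the last step came without RST day 21 replicate 2, and the 10 of day 7 against day 3 without RST day 3 replicate 1. Over all tested genes, calls in these steps ran, in the same order, over 5655 to 6516, 4320 to 7552, 2 to 4466 and 35 to 1884. In nodes, leaving out 1 library gave 0 to 2 between Implant and ContraImplant on day 7 (0 to 2030 over all tested genes) and 0 in the other comparisons. The number with an unadjusted p below 0.05 ran over 0 to 30 for that comparison (beside 4), 0 to 27 for ContraImplant against NoImplant on day 7 (beside 1), 0 to 14 for Implant against ContraImplant on day 14 (beside 9) and 0 to 27 for the interaction against ContraImplant (beside 0).

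Joint groups share replicate numbers. They were taken to pair libraries only where all 4 same-number correlations of a contrast were over 0.1, which held in 0 of 9 joint contrasts, while all 4 were above 0 in 3. For RST day 21 against day 14 they were 0.092, 0.678, 0.473 and 0.127. For RST against LST on day 35 they were 0.083, 0.139, 0.091 and 0.191. A link between libraries of the same number is thus not shown to be absent. With the replicate number as a block, 5 genes were called on day 21 against LST, beside 3, and the other joint counts moved by less than 1.5 times. With the mouse as a block, the count between Implant and ContraImplant nodes stayed 0 on day 7 and on day 14, where 19 had an unadjusted p below 0.05, and it changed no call. With 3 nodes a group and the spread of fat genes between nodes, differences below the threshold in nodes are not shown to be absent.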
